A study of Homo sapiens with 12 samples.

Results

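Fragments of the messenger RNAs (mRNA) of cytosolic ribosomal proteins were followed in extracellular vesicles (EV) along the differentiation of human induced pluripotent stem cells (hiPSC) into cardiomyocytes. The members are the protein-coding rows of the deposited gencode table whose symbol is RPL or RPS with a number, with the suffixes A, L or X, and also RPLP0, RPLP1, RPLP2 and RPSA. Kinases named RPS6K and genes of the Y chromosome were left out. The rule found 81 genes among 13577 protein-coding rows, 32 of the small and 49 of the large ribosomal subunit. Small RNA had been sequenced from 12 EV preparations, 3 independent cultures in each of 4 groups, all from the established line iPS(IMR90)-4. No arm was compared with and without an agent, but the cells of the 3 later groups had been differentiated with CHIR99021, Activin A, ascorbic acid and IWR-1, and IWR-1 was still in the medium from which CPC-EV were taken. hiPSC-EV came from undifferentiated cells at day 0 (medium conditioned for 24 h), CPC-EV from cardiac progenitor cells at day 6 (72 h), CMi-EV from immature cardiomyocytes at day 15 (48 h), and CMm-EV from more mature cardiomyocytes at day 35 (48 h). Cardiomyocytes were kept as aggregates in suspension, and the culture medium changed with the stage, so that stage, medium, agents, culture form and conditioning time cannot be told apart. A single cell line was sequenced. No cellular RNA was used here.

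A ribosome is built from ribosomal RNA and a set of proteins made in nearly equal amounts, with the small subunit decoding the mRNA and the large subunit forming the peptide bonds. The mRNAs of these proteins are short, abundant in growing cells, and typically start with a C followed by a run of pyrimidines (C and U), the terminal oligopyrimidine or TOP tract, through which mTOR signalling adjusts their translation. Most of these genes also left many processed pseudogenes in the human genome, near copies of the mRNA to which short reads can map as well.

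The TOP tract is shown here for some members on which the results below turn. Most of the matched genes, though not all, have such a tract at the annotated start. Promoter sequences from RefSeq (GRCh38.p14) were matched for 65 of the 81 genes. A C at the annotated start followed by at least 4 bases that are C or T was present in 46 of 65 (70.8%), against 4.07% of the 35116 promoters in the RefSeq table. It was present in 31 of 47 matched genes with their highest mean in CPC-EV and in 15 of 17 with their highest mean in another group. The letters CTTTCC on the sense strand within 15 bases of the start were found in 29.2% of the members and 1.57% of all promoters. CTTTCC falls inside such runs, so that these counts overlap. The letters CCGGAAG (a core that ETS factors can bind), on either strand of the 300 bases around the start, were found in 33.8% of the members and 10.3% of all promoters, and the reverse strand form can overlap the end of a pyrimidine run. TATAAA on the sense strand was found in 4.62% of the members and 7.33% of all promoters. The sequences below run 5′ to 3′ from 15 bases before the annotated start through the first 15 transcribed bases, with the longest run of C followed by C or T near the start in capitals.
RPS7: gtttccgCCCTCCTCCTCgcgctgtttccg
RPL17: CCTCTTTCCCTaagcagcctgaggtgagtg
RPS6: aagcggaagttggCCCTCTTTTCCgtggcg
RPL31: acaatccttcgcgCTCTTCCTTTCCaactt
RPL18: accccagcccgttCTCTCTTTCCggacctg
RPS19: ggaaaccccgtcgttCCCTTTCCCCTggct
RPL34: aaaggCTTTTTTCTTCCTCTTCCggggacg
RPS14: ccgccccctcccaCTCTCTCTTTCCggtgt
RPSA: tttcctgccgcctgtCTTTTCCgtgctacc
RPS27L: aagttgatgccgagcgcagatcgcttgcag
RPL10L: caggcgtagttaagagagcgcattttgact
The windows lie at chr2:3575245-3575274 for RPS7 (plus strand), chr18:49492451-49492480 for RPL17 (minus), chr9:19380222-19380251 for RPS6 (minus), chr2:101002274-101002303 for RPL31 (plus), chr19:48619164-48619193 for RPL18 (minus), chr19:41860240-41860269 for RPS19 (plus), chr4:108620561-108620590 for RPL34 (plus), chr5:150449725-150449754 for RPS14 (minus), chr3:39406705-39406734 for RPSA (plus), chr15:63157463-63157492 for RPS27L (minus) and chr14:46651767-46651796 for RPL10L (minus). In 9 of these 11 windows a run is present. The windows of the paralogs RPS27L and RPL10L hold none. RPS27L had 42 counts in all 12 libraries and RPL10L had 0. In 7 of them the start itself is a C followed by at least 4 bases that are C or T. In RPL17 the run ends before the annotated start, and in RPS7 most of the run lies before it, with the bases CTC from the start on, so that neither meets this criterion. RPL23 was not matched. RPL6 and RPS29, also named below, were matched but are not shown, and their windows hold no run. Their RefSeq starts lie 320 bases (RPL6) and 12330 bases (RPS29) from the GENCODE start.

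Counts on gencode rows totalled from 131183 to 1908089 per library, and were lowest in CMm-EV 1 and highest in hiPSC-EV 3. Protein-coding rows took 9.03% to 27.6% of them. Factors of the trimmed mean of M-values (TMM) ran from 0.368 to 2, so that the scale on which a gene is read matters. Of 11 pluripotency markers, 11 had a count in hiPSC-EV and 3 in CMm-EV, and their summed level was 772 to 1503 CPM (counts scaled to library size, TMM-normalized over the 12 libraries) in hiPSC-EV against 3.81 to 44.9 in CMm-EV. In CMm-EV POU5F1, LIN28A and DNMT3B were among those at 0. The summed level of 15 cardiomyocyte markers was 29.9 to 139 CPM in hiPSC-EV, 965 to 1368 in CPC-EV, 12390 to 17720 for CMi-EV and 9607 to 12540 for CMm-EV. In CMi-EV TNNI3 and NPPA were at 0, and in CMm-EV TNNI3 and NPPB. Cardiac mesoderm markers summed to 52.2 to 199 CPM in CPC-EV and 34.3 to 52.9 in hiPSC-EV, and to 58.0 to 239 for CMi-EV and 17.5 to 214 for CMm-EV, with MESP1 at 0 in each group but hiPSC-EV. Of the endoderm and liver list only APOB and AFP entered, at 0 to 105 CPM in CPC-EV, 0 to 137 for CMi-EV, 0 to 22.4 for CMm-EV and 1.96 to 3.12 in hiPSC-EV. Fibroblast markers summed to 41.0 to 143 CPM in CPC-EV, 29.4 to 90.3 in hiPSC-EV, 0 to 211 for CMi-EV and 87.6 to 160 for CMm-EV. Red blood cell genes were not analysed here. The part of these cell types in the results below was not tested.

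Ribosomal protein mRNA fragments took their highest share in CPC-EV, where all 3 libraries lay above all 9 others. In CPC-EV 1, 2 and 3 they made up 2.35%, 2.58% and 1.92% of the gencode counts (2.28% ± 0.34, SD, n = 3). In hiPSC-EV the shares were 0.78%, 0.561% and 0.355% (0.565% ± 0.21). In CMi-EV they were 0.584%, 0.47% and 0.368% (0.474% ± 0.11), and in CMm-EV 0.273%, 0.345% and 0.202% (0.273% ± 0.072). The mean of CPC-EV was 4.04-fold that of hiPSC-EV and 4.82-fold that of CMi-EV, while the ranges of hiPSC-EV and CMi-EV overlapped. Wilson 95% intervals, which cover counting error only, spanned 2.31% to 2.38% in CPC-EV 1 and 0.246% to 0.303% in CMm-EV 1, the shallowest library, so that the distance of CPC-EV from the other groups is larger than the counting error and the spread between replicates. The 3 CMi-EV libraries also lay above the 3 CMm-EV libraries. No p is given for the summed share, since the members were chosen with results of these data known.

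The highest values were in CPC-EV with each of 3 denominators. Of protein-coding counts alone, ribosomal protein genes took 11.7%, 12% and 9.99% in CPC-EV, against 4.47%, 4.75% and 3.93% in hiPSC-EV. CMi-EV had 3.27%, 3.39% and 1.78%, and CMm-EV had 0.989%, 1.83% and 1.1%. Between hiPSC-EV and CPC-EV the ratio of means was then 2.56. On this scale, hiPSC-EV also lay above CMi-EV in all libraries, and CMi-EV overlapped CMm-EV. As RPM, which the authors scaled to the reads of all RNA classes in a library, the members summed to 4834, 4800 and 3815 in CPC-EV, and to 1582, 1030 and 706 in hiPSC-EV. The sums were 757, 768 and 374 RPM for CMi-EV and 224, 147 and 99.4 RPM for CMm-EV. By this measure the decline from CPC-EV to CMm-EV was steepest, with a mean of 4483 RPM ± 579 in CPC-EV and 157 ± 62.7 in CMm-EV (SD, n = 3). These values are scaled within a library and say nothing of the amount of RNA per cell. A smaller part of vesicles that carry these RNAs and less of them in each such vesicle cannot be told apart in bulk EV RNA.

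**Figure D1:**
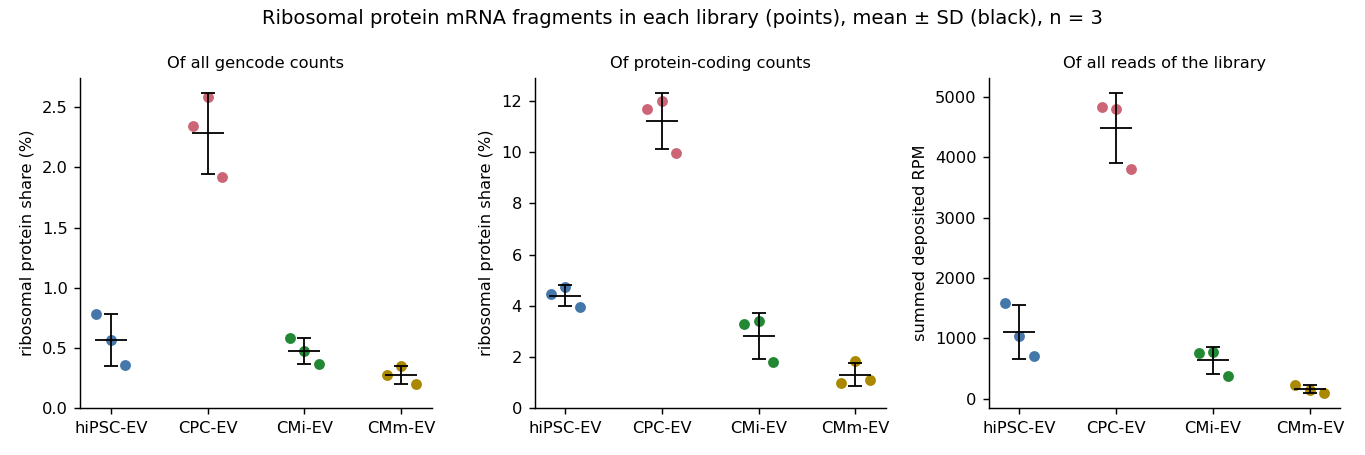
Summed ribosomal protein mRNA fragments in each library (points), with mean ± SD (black, n = 3), as percent of gencode counts (left), percent of protein-coding counts (middle) and summed deposited RPM (right), for the 4 EV groups on the x axis. On all 3 scales the CPC-EV libraries lie above the other groups (1.92% to 2.58% of gencode counts), and CMm-EV has the lowest mean (0.273%).

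Nearly the whole set was present in the first 2 stages and thinned out later. In hiPSC-EV, 75 to 80 of the 81 genes had at least 1 count and in CPC-EV 78 to 79, compared with 42 to 67 in CMi-EV and 32 to 44 in CMm-EV. The set held 2397 to 33943 counts per library in hiPSC-EV and CPC-EV and 358 to 2602 in the cardiomyocyte groups. Library sizes differed as well. hiPSC-EV 1 had 307229 gencode counts with 75 of the genes, CMi-EV 1 had 445500 with 55, CMi-EV 2 had 499442 with 67 and CMm-EV 2 had 322043 with 44. The part of depth in the number of genes counted was not tested. A count of 0 in CMm-EV allows a level of up to 3 counts, or 7.45 to 12.9 CPM depending on the library. Small subunit genes contributed 42.5% ± 1.9 of the set in hiPSC-EV and 40.4% ± 1.5 in CPC-EV (SD, n = 3). Their part was 39.2% ± 6.3 for CMi-EV and 38.2% ± 7.7 for CMm-EV, and the ranges of the groups overlapped. Across the 80 genes with a count, the rank order of CPM was similar between libraries of CPC-EV (Spearman rho 0.826 to 0.911) and of hiPSC-EV (0.71 to 0.852), but not between those of CMi-EV (0.189 to 0.435) or CMm-EV (0.138 to 0.299), where most genes rest on few counts. The group means of hiPSC-EV and CPC-EV had a rho of 0.811. These correlations are across genes, which are not independent replicates, and all values of a library share its depth.

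The protein-coding row of RPS7 (hg38 chr2:3575260-3580920, plus strand), a protein of the small subunit that also binds MDM2, led the set by mean CPM. Corrected for the length of the GENCODE v44 transcript, RPS7 reached a mean of 842 CPM per kb over the 12 libraries, ahead of RPL17 (619), RPS29 (611) and RPS20 (413). This order is carried by CPC-EV, where RPS7 stood at 2381 CPM per kb. In hiPSC-EV RPS29 led with 912 against 502 for RPS7, and in CMi-EV RPS7 (483) and RPL17 (477) were close. The order per kb depends on which transcript is annotated as canonical. Its length was 732 bases for RPS7 but 2706 for RPL23, which ranked 21st per kb. Whether the fragments came from these transcripts was not tested. By plain CPM, which is not corrected for length and says which genes carry the counts, the first 9 were RPS7, RPL23, RPL17, RPS6, RPL6, RPL15, RPL31, RPL3 and RPS20. RPS7 had 424, 374 and 305 CPM in hiPSC-EV, 1619, 2142 and 1468 in CPC-EV, 264, 557 and 240.3 in CMi-EV, and 3.81, 0 and 0 in CMm-EV. All CPC-EV libraries were thus above all others, hiPSC-EV and CMi-EV overlapped, and CMm-EV held 1 RPS7 count in 3 libraries (0.5385 before rounding). Among all protein-coding rows RPS7 ranked 29th by mean CPM in hiPSC-EV, 3rd in CPC-EV, 36th for CMi-EV and 3405th for CMm-EV. It made up 8.85% to 11% of the set in CPC-EV, 3.16% to 5.67% in hiPSC-EV and 5.07% to 8.44% in CMi-EV, but at most 0.279% in CMm-EV, where other ribosomal protein genes were still counted.

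Other leading genes showed the same maximum with different courses after it. RPL23 (chr17:38847860-38853764), a large subunit protein that also binds MDM2, had 268, 419 and 342 CPM in hiPSC-EV, 1117, 1320 and 714 in CPC-EV, 56, 276 and 116 in CMi-EV, and 7.62, 84.8 and 0 in CMm-EV. RPL17 (chr18:49488453-49492508), of the large subunit, had 134, 310 and 446 CPM in hiPSC-EV, 924, 938 and 694 in CPC-EV, 422, 121 and 336 in CMi-EV, and 15.2, 102 and 120 in CMm-EV. RPL6 (chr12:112405189-112418838), of the large subunit, was tight in hiPSC-EV with 159, 184 and 151 CPM and reached 902, 982 and 682 in CPC-EV, followed by 126, 225 and 62.2 in CMi-EV and 0, 92.3 and 64.2 in CMm-EV. For each of these 3 genes the CPC-EV libraries lay above every other library.

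RPL15 (chr3:23916591-23924374), of the large subunit, had 181, 257 and 255 CPM in hiPSC-EV, 546, 860.1 and 509 in CPC-EV, 438, 369 and 16.6 in CMi-EV, and 0, 0 and 34.3 in CMm-EV. Its CPC-EV libraries were also the highest. RPS6 (chr9:19375715-19380236), the small subunit protein phosphorylated by S6 kinases, had 268, 335 and 312 CPM in hiPSC-EV, 632, 714 and 713 in CPC-EV, 4, 315 and 373 in CMi-EV and 68.5, 42.4 and 0 in CMm-EV. A single CMi-EV library, the first, was nearly empty of it. RPL3 (chr22:39312882-39320389), which reaches towards the peptidyl transferase centre, did not single out CPC-EV, with 234, 364 and 318 CPM in hiPSC-EV and 374, 371 and 283 in CPC-EV. RPL31 (chr2:101002229-101024032), at the exit of the peptide tunnel, had 335 to 724 CPM in CPC-EV and 237 to 433 in hiPSC-EV, ranges that overlapped, and 0 to 87.2 in CMi-EV. RPS29, the short zinc-binding protein of the small subunit, was at 299 to 421 CPM in CPC-EV and 165 to 395 in hiPSC-EV. RPS20 was at 358 to 536 CPM in CPC-EV and 199 to 270.4 in hiPSC-EV, without overlap.

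**Figure D2:**
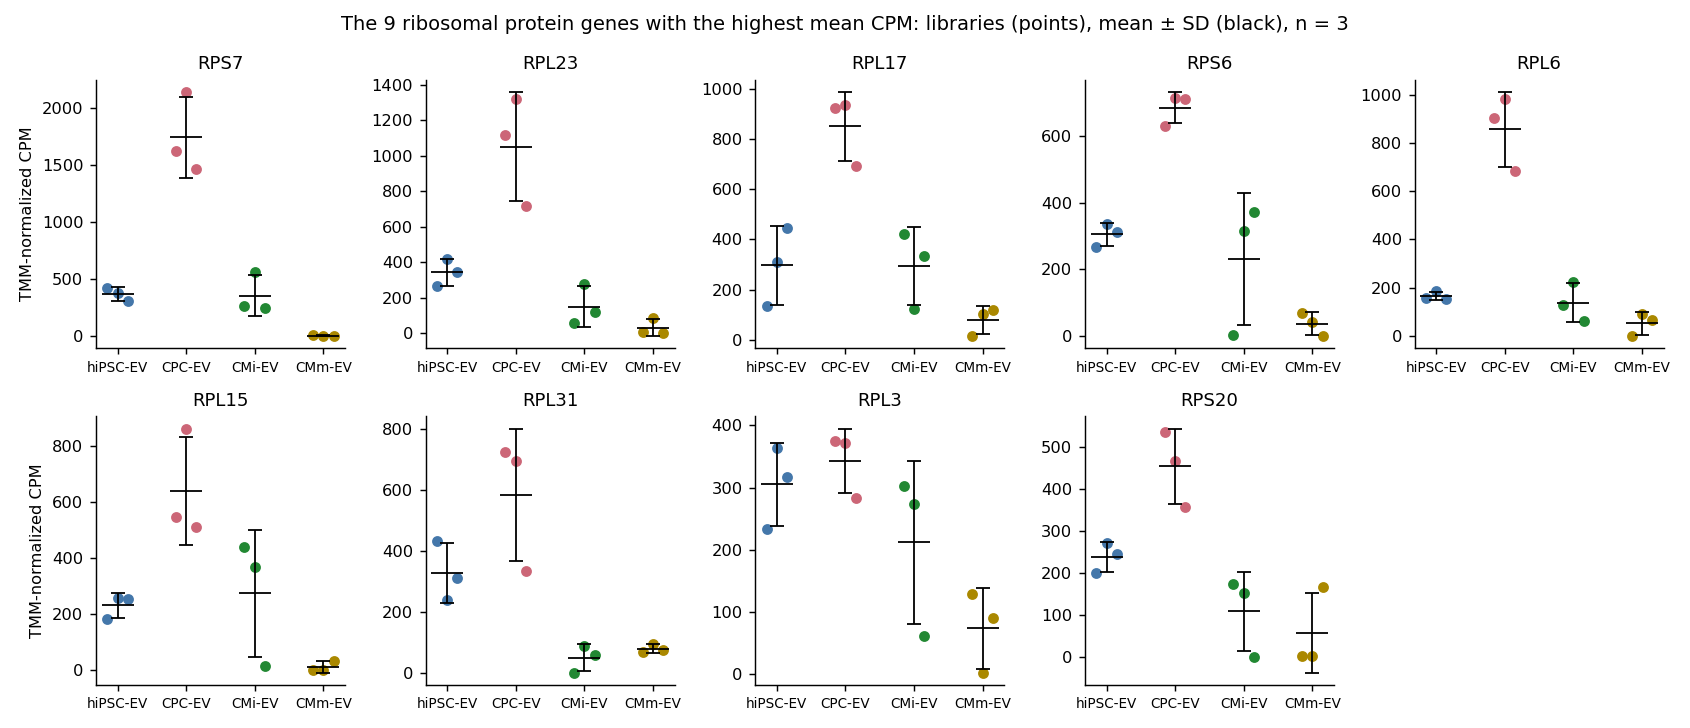
TMM-normalized CPM of the 9 ribosomal protein genes with the highest mean CPM, by EV group (x axis), with libraries as points and mean ± SD in black (n = 3); each panel has its own linear scale. RPS7 stands at 1468 to 2142 CPM in CPC-EV and at 0 to 3.81 in CMm-EV, whereas RPL3 overlaps between hiPSC-EV and CPC-EV.

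**Figure D3:**
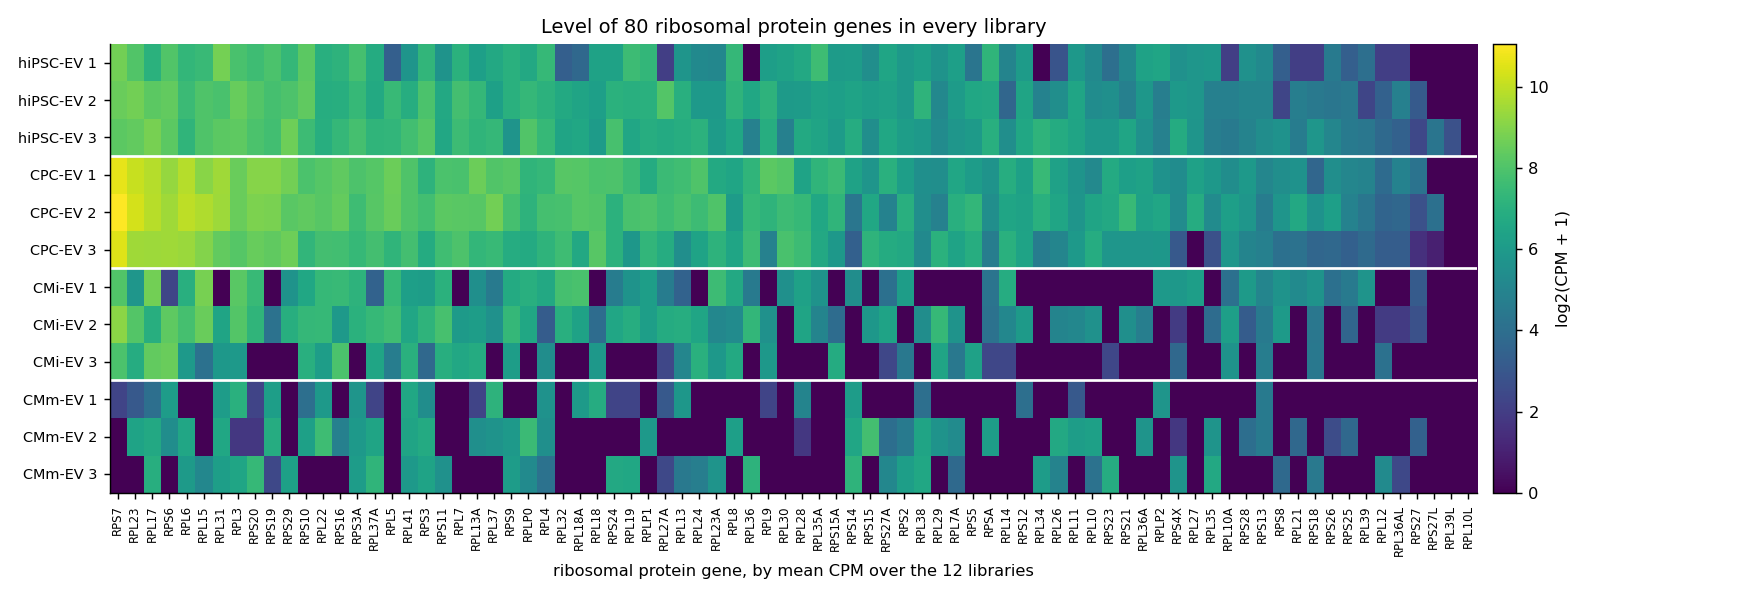
Level of 80 of the 81 ribosomal protein genes (x axis, ordered by mean CPM) in each of the 12 libraries (y axis), as log2(CPM + 1) in colour, with white lines between the EV groups. The CPC-EV block is brightest, and dark cells, with no count, are frequent in CMi-EV and CMm-EV, where 32 to 67 genes per library had a count.

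By group mean, 60 of the 80 genes with a count were highest in CPC-EV, 14 in hiPSC-EV, and 3 each in CMm-EV and CMi-EV. Of the rows tested over the 4 groups, 59 of 77 ribosomal protein genes (76.6%) and 36.8% of all 3172 rows had their maximum in CPC-EV. The quasi-likelihood F-test of edgeR over the 4 groups called 14 of 77 (18.2%), and 29% of all rows were called. RPS7 had the smallest adjusted p of the set (0.000683), followed by RPL5 (0.0156), RPL7 (0.0199) and RPL23 (0.0266). Of the 14 genes, 13 had their maximum in CPC-EV, and RPL35A had it in hiPSC-EV. The count was 3 without CPC-EV 1 (628 of 3953 rows), 7 without CPC-EV 2 (787 of 3672) and 24 without CMi-EV 1 (1048 of 3327).

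The first pairwise comparison asks what changes in EV between pluripotent cells and cardiac progenitors. Ribosomal protein mRNA fragments were shifted upward in CPC-EV, with 66 of 77 tested genes above 0 (1533 of 3014 rows). Their median log2 fold change was 0.85, against 0.04 over all 3014 rows tested. The test called 5 genes higher (6.49%, with 4.05% of all rows called higher) and none lower (6.83% of all rows). At an unadjusted p of 0.05 or less, 20 genes were higher (341 of 3014 rows) and 1 lower (367 rows). RPL6 rose by a log2 fold change of 2.51 ± 0.39 (SE, adjusted p = 0.0206) and RPS7 by 2.38 ± 0.38 (adjusted p = 0.0206). RPL18 (chr19:48615328-48619184), of the large subunit, had 81, 74.5 and 67 CPM in hiPSC-EV and 242, 270 and 294 in CPC-EV, a log2 fold change of 1.99 ± 0.44 (adjusted p = 0.0286). RPL23 followed with 1.75 ± 0.43 (adjusted p = 0.0389). All 5 genes were separated without overlap between the groups.

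The median was 0.85 over 47 large subunit genes, with 3 calls, and 0.86 over 30 small subunit genes, with 2 calls. Among the leading genes that missed the threshold, RPL15 had a log2 fold change of 1.60 ± 0.43 (adjusted p = 0.0549), RPS6 one of 1.30 ± 0.38 (adjusted p = 0.071) and RPL17 one of 1.66 ± 0.51 (adjusted p = 0.0852), each without overlap. In all, 28 of 77 genes (36.4%) had every CPC-EV library above every hiPSC-EV library, compared with 20.5% of all rows, and 3 (3.9%) the reverse, compared with 18.9%. Of the 77 genes, 61 passed the minimum of 5 counts in both groups, 15 through CPC-EV alone and 1 through hiPSC-EV alone. Those that passed in both had a median of 0.85, and all rows that passed in both had one of -0.15. RPL10L, RPL39L, RPS27 and RPS27L were not tested. Scaling to library size alone moved the median of all rows to 1.08 and that of the set to 1.88, which left the distance between them at 0.80 (0.81 with TMM). The distance was 0.45, 0.50 and 0.52 without CPC-EV 1, 2 and 3, 1.62 without hiPSC-EV 1 and 1.70 with no filter. Scaling to library size called 27 genes higher (357 of 3014 rows). With the filterByExpr filter of edgeR 0 of 77 genes and 0 of 3117 rows were called (22 genes and 373 rows at an unadjusted p of 0.05 or less). Without CPC-EV 3 it was 0 of 78 and 0 of 4474 rows (21 genes and 959 rows at that p). DESeq2 called 18 genes higher and 1 lower (271 and 398 of 3014 rows). The count was 13 without hiPSC-EV 1 (110 of 5254 rows higher). It was 2 without hiPSC-EV 2 (28 of 3515), hiPSC-EV 3 (46 of 3206), CPC-EV 1 (171 of 3809) or CPC-EV 2 (140 of 3530).

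The comparison of CMi-EV with CPC-EV follows the step from progenitors to cardiomyocytes. Most ribosomal protein genes had lower values in CMi-EV. Of 76 tested genes 74 had a negative log2 fold change (1693 of 2286 rows). The median was -1.80 for the set against -1.46 over 2286 rows, and 10 genes were called lower (13.2%, against 28.1% of all rows). None was called higher (2.49% of all rows). At an unadjusted p of 0.05 or less, none was higher (117 of 2286 rows) and 16 were lower (773 rows). In 45 genes (59.2%) every CMi-EV library was below every CPC-EV library, compared with 46.1% of all rows, and in none was it above (8.44%). Of the 76 genes, 20 passed the minimum in both groups, with a median of -1.13 against 0.47 for all such rows, and 56 passed through CPC-EV alone, as did 1806 of the 2286 rows. A row that passed through CPC-EV alone had to be low in a CMi-EV library, so that the medians over all tested rows carry the filter. Their order turned without CPC-EV 1 (-1.85 for the set and -1.94 for all rows) and without CPC-EV 3 (-1.99 and -2.25).

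RPL34 (chr4:108620569-108630412), of the large subunit, had 173, 129 and 23.7 CPM in CPC-EV and no count in CMi-EV. Against 3 counts over the group it was at least 46.6-fold lower (adjusted p = 0.0231). RPL34 and the next 3 genes entered the test through CPC-EV alone, each with under 5 counts in at least 1 CMi-EV library, so that these calls carry the filter as well. RPS19 (chr19:41860255-41872925), the small subunit protein mutated in many patients with Diamond-Blackfan anaemia, went from 529, 456 and 330.2 CPM to 0, 16.9 and 0, a log2 fold change of -6.51 ± 1.18 (adjusted p = 0.0231). All 6 of its CMi-EV counts came from CMi-EV 2, without which the group was at 0 and the fitted value was -11.69. RPS23 (chr5:82273320-82278396), of the decoding centre, went from 108, 101 and 56 CPM to 1 count in CMi-EV 3, a ratio of 113 (95% counting interval 20.1 to 4474). RPL36AL, a paralog of RPL36A, went from 60 counts to 1, a ratio of 19.6 (3.39 to 789). Both genes were called, with adjusted p of 0.0234 and 0.0291. Their single counts were expected counts of 0.6667 (RPS23) and 0.8966 (RPL36AL) before rounding, so that ratios and intervals treat a divided read as whole. The low values did not all last to the next stage. In CMm-EV, RPS19 had 72.3, 115 and 4.28 CPM, a higher mean than in CMi-EV (63.8 against 5.63). RPS23 (27 counts) and RPL34 (16 counts) were counted in CMm-EV 3 alone, and RPL36AL had 1 count. None of these genes entered the test of CMm-EV against CMi-EV.

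Of the genes that had risen in CPC-EV, RPS7 fell by 2.53 ± 0.40 on the log2 scale (adjusted p = 0.0231), RPL6 fell by 2.86 ± 0.51, and RPL23 fell by 3.06 ± 0.58. Both comparisons contain the CPC-EV libraries, so that a rise and a fall are not independent. RPL37 and RPL13A, named after their values were seen, were also called. RPL37 entered the test through CPC-EV alone, so that its call carries the filter. Without CPC-EV 2 no gene was called (0 of 76, and 0 of 2849 rows), with 9 genes and 1090 rows at an unadjusted p of 0.05 or less. The filterByExpr filter gave 0 of 74 genes and 3 of 2300 rows, with 17 genes and 478 rows at that p. DESeq2 gave 22, all lower (823 of 2286 rows). The count was 16 without CMi-EV 1 (587 of 2475 rows lower) and 20 without CMi-EV 2 (852 of 2427).

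Between CMi-EV and CMm-EV the data were thin, with 25 of 81 genes tested. Of these, 21 had a negative log2 fold change (345 of 603 rows). The median was -1.39 for the set against -0.27 over 603 rows (-1.27 against 0.14 with library size only). The test called 3 genes lower (12%, against 9.29% of all rows). None was called higher (2.32% of all rows). At an unadjusted p of 0.05 or less, none was higher (37 of 603 rows) and 4 were lower (82 rows). RPS7 dropped from 388 counts in CMi-EV to 1 in CMm-EV, a ratio of 301 (53.7 to 11920, adjusted p = 0.0234). That 1 was an expected count of 0.5385 before rounding, so that the ratio and its interval treat a divided read as whole. RPL5 (chr1:92832013-92841924), which binds the smallest ribosomal RNA of the large subunit, had 170, 205 and 24.9 CPM in CMi-EV and no count in CMm-EV, at least 42.4-fold lower (adjusted p = 0.0341). With all rows of RPL5 summed the log2 fold change was -2.08 and not called, and the call was lost in 7 of 16 alternatives. RPL10A (chr6:35468401-35470785), of the stalk next to the exit site, had 16, 76 and 49.7 CPM in CMi-EV and no count in CMm-EV, at least 12.2-fold lower (adjusted p = 0.0234). RPS7, RPL5 and RPL10A entered the test through CMi-EV alone, so that these 3 calls carry the filter. In 8 genes (32%) CMm-EV lay wholly below CMi-EV, compared with 21.4% of all rows, and in 1 gene (4%), RPS14, wholly above, compared with 11.1%. Of the 25 genes, 19 passed the minimum through CMi-EV alone, 5 through CMm-EV alone and 1 in both, against 247, 123 and 233 of all rows, so that the lower median of the set carries the filter. The filterByExpr filter left 0 of 32 genes and 0 of 836 rows called (1 gene and 48 rows at an unadjusted p of 0.05 or less). DESeq2 called 4 lower (75 of 603 rows). Without CMi-EV 1 the test called 4 genes lower and RPS14 higher (151 and 17 of 870 rows), and without CMi-EV 3 it called 6 lower (299 of 1135).

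Other members were still counted where RPS7 was nearly absent. In CMm-EV, RPL17 (15.2 to 120 CPM) and RPL31 (68.5 to 94.8) had counts in every library, and RPL31 had a higher mean there than in CMi-EV (78.7 against 48.4 CPM), although the ranges overlapped.

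**Figure D4:**
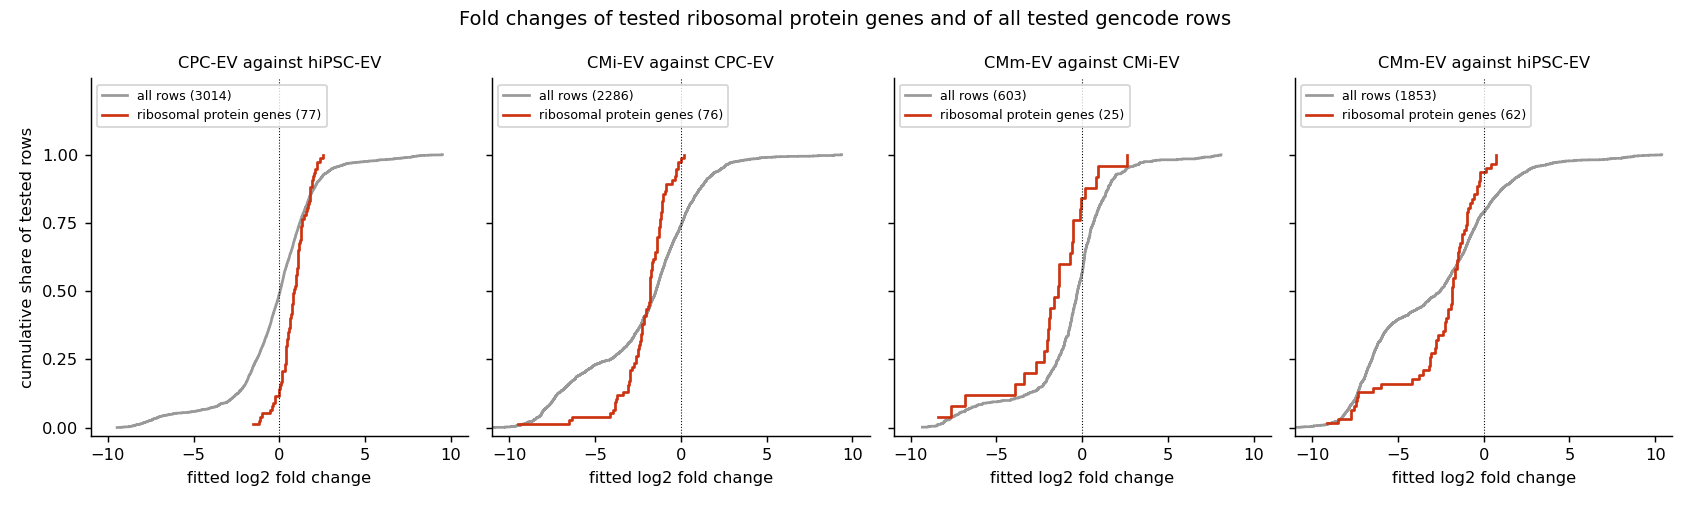
Cumulative share of tested rows (y axis) against the fitted log2 fold change (x axis) for the tested ribosomal protein genes (red) and all tested gencode rows (grey), in the 4 comparisons, with the number of rows in each legend; fitted values of genes with a group at 0 depend on the prior count. The red curve lies to the right of the grey one around its median for CPC-EV against hiPSC-EV (0.85 against 0.04) and for CMm-EV against hiPSC-EV (-1.83 against -2.52), and to its left for the other two.

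Over the whole course, from hiPSC-EV to CMm-EV, 58 of 62 tested genes had a negative log2 fold change (1464 of 1853 rows). Their median of -1.83 was less negative than that of all 1853 rows (-2.52), and with scaling to library size alone the values were -1.27 and -1.91. With groups at 0 set to their bound, the median of all rows was -2.15 and that of the set -1.83. This order turned with filterByExpr (-1.69 for the set and -0.38 for all rows) and with no filter (-2.64 and -2.48). Of the 62 genes 56 had passed through hiPSC-EV alone, as had 1497 of the 1853 rows. Over the 6 genes that passed in both groups the median was -1.10, and over all such rows it was 0.32, which is the opposite order. The test called 11 genes lower (17.7%), against 46.7% of all rows, and none higher, against 4.70%. At an unadjusted p of 0.05 or less, none was higher (100 of 1853 rows) and 15 were lower (926 rows). Groups did not overlap for 36 genes lower (58.1%, against 56.8% of all rows) and 0 higher (8.09%). RPL7, of the large subunit, had 134, 214 and 192 CPM in hiPSC-EV and no count in CMm-EV, at least 47.1-fold lower. RPL35A (196, 82.3 and 88.3 CPM in hiPSC-EV), of the large subunit, was at least 27.4-fold lower, and RPS15A (65.4, 74.5 and 67 CPM), of the small subunit, at least 17.4-fold lower, also with no count in CMm-EV. The adjusted p of each of these 3 genes was 0.0076. All 3 entered the test through hiPSC-EV alone, so that these calls carry the filter. RPS7 was lower by a ratio of 267 (47.6 to 10550, adjusted p = 0.0076), again with an expected count of 0.5385 rounded to 1 in CMm-EV. RPS7 also entered the test through hiPSC-EV alone, so that its call carries the filter. The call held under all 17 alternatives run for it in this comparison. DESeq2 called 25 genes lower (975 of 1853 rows), and filterByExpr 4 of 50 (106 of 838). The count was 23 without CMm-EV 2 (974 of 1990 rows lower) and 21 without CMm-EV 3 (1015 of 2003).

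Some genes departed from the common course, though no difference between hiPSC-EV and CPC-EV passed the main edgeR test for them. DESeq2 called 1 gene of the set lower in CPC-EV. RPSA, the small subunit protein also known as the laminin receptor, had 150, 99.9 and 124 CPM in hiPSC-EV, 50.6, 42.7 and 24.7 in CPC-EV, 18, 16.9 and 4.14 in CMi-EV, and 0, 69.8 and 0 in CMm-EV. Its CPC-EV libraries all lay below those of hiPSC-EV, with a log2 fold change of -1.52 ± 0.61 (adjusted p = 0.184). RPS14, the small subunit gene lost in the myelodysplastic syndrome with isolated deletion of the long arm of its chromosome, had 68.5, 84.3 and 114 CPM in hiPSC-EV, 81.7, 19.1 and 9.49 in CPC-EV, 42, 0 and 0 in CMi-EV, and 68.5, 92.3 and 146 in CMm-EV. With RPL35 and RPL12 it was 1 of 3 genes with their highest mean in CMm-EV (102 CPM for RPS14). Its log2 fold change between CMm-EV and CMi-EV was 2.63 ± 1.54 (adjusted p = 0.436). RPL38, of the large subunit, had 74.8, 147 and 61.3 CPM in hiPSC-EV and 44.7, 43.9 and 37 in CPC-EV, a change of -1.03 ± 0.65 (adjusted p = 0.391). RPS14, RPL35, RPL12 and RPL38 were chosen after their values were seen.

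The acidic stalk of the large subunit, which recruits translation factors, consists of RPLP0 with RPLP1 and RPLP2. RPLP0 had overlapping ranges, with 103 to 265 CPM in hiPSC-EV and 107 to 151 in CPC-EV (log2 fold change -0.28 ± 0.53, adjusted p = 0.787). RPLP1 had 118 to 159 CPM in hiPSC-EV and 111 to 249 in CPC-EV (0.48 ± 0.51, adjusted p = 0.616). RPLP2 had 25.5 to 90.3 CPM in hiPSC-EV and 48.6 to 91.8 in CPC-EV (0.59 ± 0.79, adjusted p = 0.691). None of the 3 was called in any comparison in which it was tested. In CMm-EV, RPLP1 was counted in 1 library (62.3 CPM), RPLP2 in 1 (53.3 CPM) and RPLP0 in 2 (38.6 and 187 CPM).

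The paralogs had few counts, in most cases fewer than their partners. RPL10L, a copy of RPL10 used in the male germline, had no count in any library, while RPL10 had 36 to 113 CPM in CPC-EV and 37.4 to 58.4 in hiPSC-EV. RPL39L, a further testis paralog, had 4 counts in hiPSC-EV 3 and none elsewhere, whereas RPL39 had 13.3 to 30.1 CPM in CPC-EV and 3.92 to 20 in hiPSC-EV. RPS27L had 13 counts in hiPSC-EV 3, and 28 and 1 in CPC-EV 2 and 3, and exceeded RPS27 in hiPSC-EV 3 (18.5 against 4.27 CPM) and in CPC-EV 2 (16.2 against 5.78). RPS27 itself reached no more than 17.5 CPM. RPL36AL had 8.54 to 29.2 CPM in CPC-EV and 3.12 to 27.4 in hiPSC-EV, below RPL36A in each of these 6 libraries (56 to 81.7 CPM in CPC-EV and 47 to 81 in hiPSC-EV). These plain CPM are not corrected for length. Per kb of annotated transcript the 4 paralogs were among the 5 lowest of the set, with a length of 6110 bases for RPS27L. RPL3L was not analysed here.

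Reads of these mRNAs were divided among several rows. Of 764 non-zero values of the 81 genes 54 (7.07%) were whole numbers to within 0.001, since a read that fits several features is shared among them. The table also holds 137 other transcript rows of the same genes (retained introns, processed transcripts and the like) and 934 rows of their numbered pseudogenes. The protein-coding rows took 51.8% to 52.1% of all these counts in CPC-EV, 45.4% to 50.4% in hiPSC-EV, 39.4% to 50.2% for CMi-EV and 37.2% to 46.4% for CMm-EV. Other transcript rows followed the same course, with 1.48%, 1.61% and 1.19% of gencode counts in CPC-EV and 0.301% to 0.525% in hiPSC-EV. The pseudogene rows did as well, with 0.704%, 0.756% and 0.587% in CPC-EV, 0.111% to 0.242% in hiPSC-EV, 0.13% to 0.203% for CMi-EV and 0.0747% to 0.106% for CMm-EV. Whether a read came from the gene or a copy cannot be told from these tables. With all rows of a gene summed before the test, 7 of 78 genes were called higher at the step from hiPSC-EV to CPC-EV (108 of 2752 rows) and 11 of 77 lower at the step to CMi-EV (572 of 2029 rows). Across the 80 genes with a count, mean CPM had a Spearman rho of 0.191 with the number of pseudogene rows and 0.234 with annotated transcript length.

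**Figure D5:**
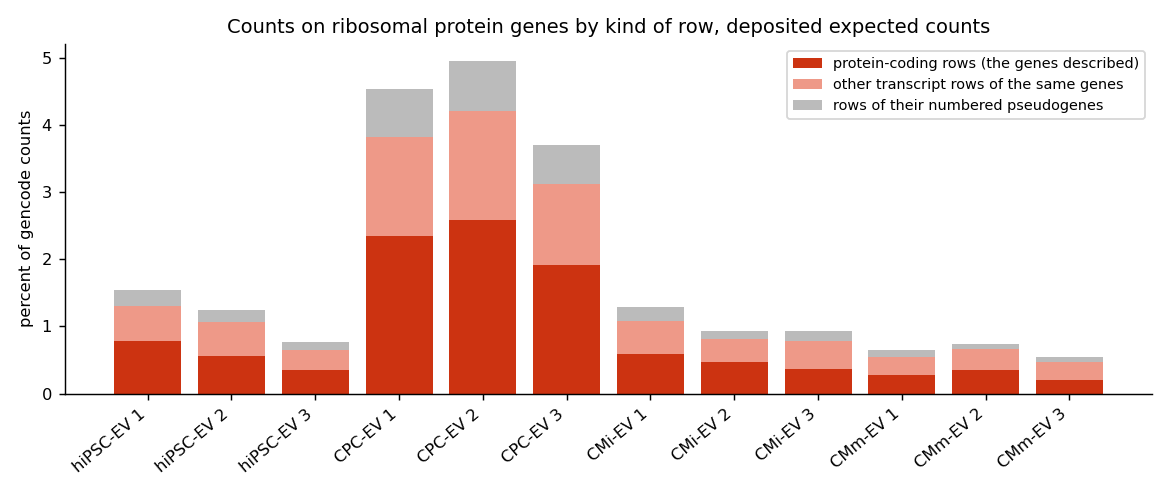
Percent of gencode counts (y axis) on the protein-coding rows of the 81 genes, on their other transcript rows and on rows of their numbered pseudogenes, stacked for each library (x axis), from the deposited expected counts. All 3 kinds of row are highest in the CPC-EV libraries, where the protein-coding rows reach 1.92% to 2.58%.

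Further genes of translation were listed for comparison. FAU, whose product is fused to a ubiquitin-like protein, and RACK1, a scaffold on the small subunit, belong to the ribosome but not to the naming rule. FAU had 11, 20 and 29 counts in hiPSC-EV and none in the other 9 libraries, and it was called lower in CPC-EV. It entered the test through hiPSC-EV alone, so that this call carries the filter. With filterByExpr, with a replicate number term and without CPC-EV 3, no row was called in this comparison, FAU included. FAU was chosen after its values were seen. RACK1 had 85.9 CPM ± 13 in CPC-EV and 121 ± 67 in hiPSC-EV (SD, n = 3). A list of 21 elongation and initiation factors and other mRNAs of the translation machinery took 0.638% of gencode counts in CPC-EV and 0.266% in hiPSC-EV, a ratio of 2.4. Their median log2 fold change was 0.23 against 0.04 over all rows. No gene was called (none at an unadjusted p of 0.05 or less), against 4.05% of all rows called higher and 6.83% lower. In CMi-EV against CPC-EV, 4 of 19 (21.1%) were called lower, against 28.1% of all rows. In CMm-EV against CMi-EV none of 11 was called (1 at an unadjusted p of 0.05 or less), against 9.29% of all rows called lower. In CMm-EV against hiPSC-EV it was 5 of 17 (29.4%), against 46.7%. Of the 19 genes 8 passed the minimum through CPC-EV alone, and of the 17 genes 12 through hiPSC-EV alone, so that these counts carry the filter. EEF1A1, the elongation factor that brings aminoacyl-tRNA to the ribosome, had its highest mean in hiPSC-EV (1518 CPM ± 519), ahead of CPC-EV (1198 ± 187), CMi-EV (632 ± 65) and CMm-EV (262 ± 79). PABPC1, the poly(A)-binding protein, had 402 CPM ± 2.7 in hiPSC-EV and 654 ± 269 in CPC-EV.

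Mitochondrial ribosomal proteins, which serve the separate ribosome of mitochondria, were sparse. Their 73 genes took 0.0382% of gencode counts in hiPSC-EV and 0.1% in CPC-EV, then 0.0523% for CMi-EV and 0.0349% for CMm-EV. In the CPC-EV libraries the shares were 0.133%, 0.121% and 0.0476%, and the last of these overlapped hiPSC-EV. Only 5 of the 73 genes could be tested between hiPSC-EV and CPC-EV, with none called (1 at an unadjusted p of 0.05 or less), and 3 each between CMi-EV and CPC-EV and between CMm-EV and hiPSC-EV, with 2 called lower in each, against 28.1% and 46.7% of all rows. In both comparisons all 3 genes passed the minimum through the earlier group alone, so that these calls carry the filter. None reached the minimum for CMm-EV against CMi-EV.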

How the data were processed

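Small RNA of 12 EV preparations was analysed from 2 gencode tables. The authors had processed the reads with the exceRpt pipeline on hg38 and deposited expected counts per transcript class of a gene, in which reads with several matches are divided, and RPM scaled to all reads of a library, which served for the RPM sums only. No column was left unmapped (0). Per the labels, the processing notes name edgeR 3.24.0. Expected counts were rounded to whole numbers, and CPM were TMM-normalized over the 12 libraries.

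The members, lists and tests were chosen with earlier results of these data known. For pairs of groups, edgeR 4.0.16 (R 4.3.3) fitted quasi-likelihood models, tested two-sided, to all gencode rows that reached 5 counts in every library of 1 group or both, with TMM within the 6 libraries, Benjamini-Hochberg adjustment over all rows tested, and calls at FDR 0.05 where the log2 fold change was also 1 or more in size. A quasi-likelihood F-test compared the 4 groups. Standard errors were taken from the inverse of the fitted information matrix. Where a group had no count, fold changes are bounds against 3 counts over the group, and with 1 to 3 counts they are ratios with exact 95% counting intervals. The test, with this filter on low counts, was checked on simulated counts, where it made more false calls than the FDR states. Other filters were not checked in this way, so that the part of the filter in these false calls was not tested. Replicates were independent cultures.

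Named were RPS7, the 10 genes with the highest mean CPM and the 5 with the highest CPM per kb, in each comparison the 4 called genes with the largest change per direction, the stalk genes and RPSA, paralogs with their partners, and genes with no count. Some genes that this rule names are not reported here, though totals and counts of genes include them. Alternatives were other scalings (median-of-ratios, library size only), filters (5 CPM, filterByExpr, none), DESeq2 1.42.0, a replicate number term, dispersions from all 12 libraries, FDR alone, each library left out, and, added after seeing the data, rows of a gene summed and protein-coding rows only. Positions are those of hg38 with GENCODE 44, start sequences those of RefSeq. Tables and figures used Python 3.11.15, pandas 2.3.3, scipy 1.17.1 and matplotlib 3.10.9.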

Additional observations from a re-analysis of the deposited data

How the results depend on the processing

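The course of the share held under the alternatives for its members and total, and the counts of called genes did not. The number over all rows stands in parentheses. For CPC-EV against hiPSC-EV, 5 genes were called (328 of 3014 rows), and the number was 27 with library size only (526), 9 with at least 5 CPM (337 of 3056), 19 with DESeq2 (669), and 0 with filterByExpr (0 of 3117), with no filter (62 of 31338), with dispersions from all 12 libraries (140) and with the replicate block (0). Leaving out a library gave 0 (0 of 4474, without CPC-EV 3) to 13 (819 of 5254, without hiPSC-EV 1). For CMi-EV against CPC-EV, with 10 called (699 of 2286), it was 0 with filterByExpr (3 of 2300), 4 with no filter (36 of 24118) and 22 with DESeq2 (963). It was 5 with dispersions from all 12 libraries (497) and 3 with the replicate block (20). A library left out gave 0 (0 of 2849, without CPC-EV 2) to 20 (965 of 2427, without CMi-EV 2). For CMm-EV against CMi-EV, with 3 called (70 of 603), it was 0 with filterByExpr (0 of 836), with no filter (3 of 16377) and with the replicate block (0). A library left out gave 2 (166 of 792, without CMi-EV 2) to 6 (322 of 1135, without CMi-EV 3). For CMm-EV against hiPSC-EV, with 11 called (952 of 1853), it was 4 with filterByExpr (153 of 838) and 2 with no filter (68 of 28627). It was 25 with DESeq2 (1101) and 1 with the replicate block (78). A library left out gave 11 (1031 of 2052, without hiPSC-EV 3) to 23 (1128 of 1990, without CMm-EV 2). Over the 4 EV groups, with 14 called (919 of 3172), it was 25 with median-of-ratios factors (1202) and 5 with filterByExpr (87 of 3421). It was 9 with no filter (172 of 35180), 34 with DESeq2 (1106) and 10 with the replicate block (605). A library left out gave 3 (628 of 3953, without CPC-EV 1) to 24 (1048 of 3327, without CMi-EV 1). The cause was not tested. Same-numbered libraries did not deviate together (correlations of -0.0784 to 0.0678, 5 of 12 libraries closest to their own number). Many rows have few counts in the later groups, so that these values cannot decide whether libraries of the same number are paired. With the replicate block the medians for CMi-EV against CPC-EV were -2.63 for the set and -2.68 for all rows, the opposite order. The 16 gene fold changes that were followed through the alternatives kept their direction where they could be tested, and RPL23, RPL37, RPL13A and FAU, and RPL6 in CMi-EV against CPC-EV, were not followed. The call was lost in 9 of 17 alternatives for RPL18, in 7 of 16 for RPL5 and in 6 of 16 for RPL36AL, and in 5 of 17 each for RPS23 and, in CPC-EV against hiPSC-EV, RPS7 and RPL6. The mean share moved with the pseudogene rows added (2.96% in CPC-EV, 0.634% in CMi-EV, 0.357% in CMm-EV) and with protein-coding counts as the total (CPC-EV 11.2%, hiPSC-EV 4.38%, CMi-EV 2.81%, CMm-EV 1.31%). With a library left out the mean was 2.13% to 2.46% for CPC-EV and 0.458% to 0.671% for hiPSC-EV, and 0.419% to 0.527% and 0.237% to 0.309% for CMi-EV and CMm-EV. Without hiPSC-EV 1 the hiPSC-EV mean (0.458%) fell below the CMi-EV mean over all its libraries (0.474%), so that the order of these 2 groups rests on that library. Depth limits the later stages, where 3 counts are 7.45 to 12.9 CPM in CMm-EV and 1.73 to 2.92 CPM in CPC-EV.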
